A study of Mus musculus with 6 samples.

Results

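Adcy2, Pde1a, Sphkap and Vav3 are 4 of the 19938 genes with values on arrays of EGFP-sorted main olfactory epithelium cells from Fezf1-null and heterozygous mouse embryos. They act in cyclic nucleotide signalling or, for Vav3, in related signalling through guanine nucleotide exchange, and none belongs to the canonical odour transduction cascade. They were chosen by symbol and with their higher signal in null cells already known, so their difference between genotypes is described here and not tested. Each was represented by 1 probe set, a group of oligonucleotides for 1 transcript whose signals are summarised to 1 value: 10410408 for Adcy2, 10484283 for Pde1a, 10356154 for Sphkap and 10495416 for Vav3.

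The 3 null samples (Fezf1-/- 1 to 3) and the 3 heterozygous samples (Fezf1+/- 1 to 3) came from E18.5 embryos on a C57BL/6 background, with 1 Affymetrix 1.0 ST array each. In both groups the sort used EGFP, which the targeted Fezf1 allele expresses from the Fezf1 promoter, so every profiled cell carried that allele and no cells without it were analysed here. Whether a replicate was 1 embryo, a litter or a pool is not given in the labels, so the spread between arrays may be technical. Fezf1, the zinc-finger transcription factor that was targeted, had signals of 5.92 ± 0.36 in null and 11.23 ± 0.09 in heterozygous cells (log2 units, SD, n = 3 each), which checks the labels.

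Cyclic AMP and cyclic GMP are made by adenylyl and guanylyl cyclases, broken down by phosphodiesterases, and read by protein kinases and cyclic nucleotide-gated channels. In most olfactory sensory neurons an odorant receptor activates the G protein subunit encoded by Gnal, which stimulates the adenylyl cyclase Adcy3, and cyclic AMP then opens the channel built from Cnga2, Cnga4 and Cngb1. Adcy2 encodes another membrane adenylyl cyclase, one that G protein beta-gamma subunits stimulate and that has been described in vomeronasal sensory neurons of rodents. Pde1a encodes a phosphodiesterase that calcium and calmodulin activate, Sphkap an anchoring protein that binds protein kinase A and sphingosine kinase, and Vav3 a guanine nucleotide exchange factor.

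Promoter sequences are shown because the 4 genes were higher in the same arrays, and they allow the starts to be compared. RefSeq promoter windows of build GRCm38.p6, with 250 bases before and 50 after a transcript start, were held for all 4 genes, 9 windows in all. The arrays do not tell which start was used, and no build is named for the array values. For Adcy2 and Sphkap the single window is printed, and for Pde1a and Vav3 the 1 window of several in which a searched motif occurred. Letters in capitals mark such a motif, and all sequences run 5′ to 3′.
Adcy2, chr13:68999492-68999791, minus strand: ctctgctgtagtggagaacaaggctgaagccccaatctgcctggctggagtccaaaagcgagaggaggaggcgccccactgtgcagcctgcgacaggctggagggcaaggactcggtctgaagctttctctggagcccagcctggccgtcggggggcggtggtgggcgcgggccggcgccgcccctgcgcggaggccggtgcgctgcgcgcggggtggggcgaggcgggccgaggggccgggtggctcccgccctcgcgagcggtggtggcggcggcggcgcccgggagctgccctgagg
Pde1a, chr2:80038853-80039152, minus strand: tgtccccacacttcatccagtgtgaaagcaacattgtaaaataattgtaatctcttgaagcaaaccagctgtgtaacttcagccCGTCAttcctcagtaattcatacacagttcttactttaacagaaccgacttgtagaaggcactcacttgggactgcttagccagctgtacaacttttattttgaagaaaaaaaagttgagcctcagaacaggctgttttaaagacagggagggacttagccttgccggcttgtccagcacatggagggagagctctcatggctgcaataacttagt
Sphkap, chr1:83408151-83408450, minus strand: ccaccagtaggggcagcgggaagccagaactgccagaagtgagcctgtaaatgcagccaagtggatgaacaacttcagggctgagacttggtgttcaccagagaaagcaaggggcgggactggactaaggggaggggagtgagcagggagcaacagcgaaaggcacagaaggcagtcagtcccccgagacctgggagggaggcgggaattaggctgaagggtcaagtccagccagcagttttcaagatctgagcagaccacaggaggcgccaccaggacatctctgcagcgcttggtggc
Vav3, chr3:109340433-109340732, plus strand: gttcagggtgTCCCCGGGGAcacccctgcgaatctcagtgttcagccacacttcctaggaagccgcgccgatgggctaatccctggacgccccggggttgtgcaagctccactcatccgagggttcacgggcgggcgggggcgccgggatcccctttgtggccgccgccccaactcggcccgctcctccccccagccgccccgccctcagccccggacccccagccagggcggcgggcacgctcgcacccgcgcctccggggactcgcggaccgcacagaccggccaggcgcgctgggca

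The windows differed in base composition. The Adcy2 window held 75% G or C and the printed Vav3 window 74.3%, above 96.1% and 95.6% of all 32851 windows, while the Sphkap window held 59.0% and the 4 Pde1a windows between 42.0% and 50.3%, against a median of 52.7%. The other Vav3 windows held 78.0% and 44.7%, so the starts of Vav3 differed among themselves. A search on both strands looked for the full cyclic AMP response element TGACGTCA, which occurs in 1.79% of all windows, and found it in 0 of the 9. The shorter half-site TGACG, which lies within the full element, occurs in 20.8% of all windows and was found in 1, the printed Pde1a window, on the reverse strand as CGTCA. The palindrome bound by EBF factors (TCCC, any 2 bases, then GGGA) occurs in 0.904% of all windows and was found in 1, the printed Vav3 window. The homeodomain core TAATTA occurs in 5.29% of all windows and was found in 0 of the 9. No searched motif was thus found in the windows of more than 1 of the 4 genes, which says only that these letters do not recur in these windows.

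On every null array each of the 4 genes had a higher signal than on every heterozygous array. All null values lay above all heterozygous values in 9.72% of all genes, and since the members were picked for being higher, their 4 of 4 is a description. Ordered by the difference, null minus heterozygous on the log2 scale, Sphkap stood at position 1 of 19938 genes, Pde1a at 3, Vav3 at 8 and Adcy2 at 22. With null replicate 1 left out, an array that stood apart as described below, the positions were 1, 4, 8 and 28.

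**Figure D1:**
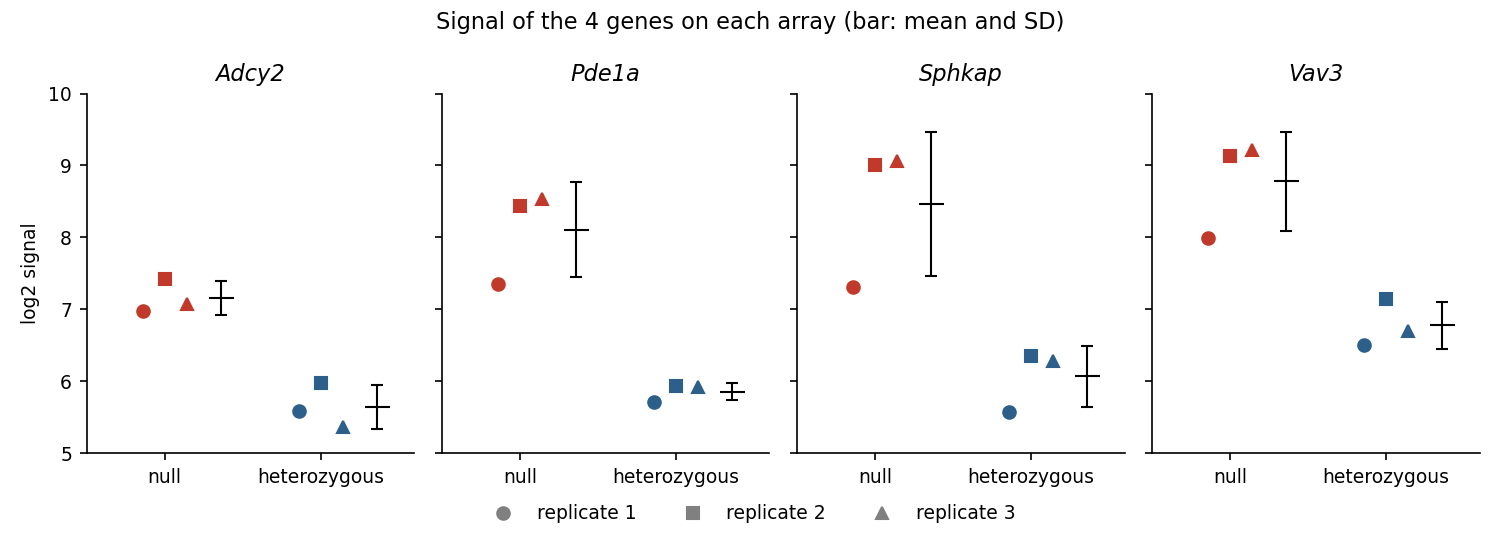
Log2 signal of Adcy2, Pde1a, Sphkap and Vav3 (vertical axis) on the 3 null and the 3 heterozygous arrays, 1 point per array with the replicate number as its shape, and the mean with its SD as a bar. All null points lie above all heterozygous points in each panel, and null replicate 1 is the lowest null point in all 4.

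Adcy2, the cyclase, had log2 signals of 6.97, 7.42 and 7.08 in null replicates 1, 2 and 3, against 5.59, 5.98 and 5.37 in heterozygous replicates 1, 2 and 3. The groups did not overlap, and the lowest null value lay 1.00 above the highest heterozygous value. The means were 7.16 ± 0.24 in null and 5.65 ± 0.31 in heterozygous cells (SD, n = 3 each), and the difference was 1.51 (SE 0.20), or a 2.85-fold higher signal. The null arrays lay close together for this gene, with replicate 1 only 0.28 below the mean of the other null arrays, and the difference without it was 1.61 (SE 0.20).

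Pde1a, the calcium-dependent phosphodiesterase, had log2 signals of 7.35, 8.44 and 8.53 in null replicates 1, 2 and 3, against 5.72, 5.93 and 5.92 in heterozygous replicates 1, 2 and 3. The heterozygous arrays were tight (SD 0.12) and the null arrays were not (SD 0.66), because null replicate 1 lay 1.14 below the mean of the other null arrays. Even that array stood 1.42 above the highest heterozygous value. The difference between the means was 2.25 (SE 0.32), a 4.76-fold higher signal, and without null replicate 1 it was 2.63 (SE 0.11), or 6.20-fold.

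Sphkap, the kinase anchor, had log2 signals of 7.31, 9.01 and 9.07 in null replicates 1, 2 and 3, against 5.57, 6.35 and 6.28 in heterozygous replicates 1, 2 and 3. Both groups held 1 lower array, null replicate 1 (1.73 below the mean of the other null arrays) and heterozygous replicate 1. The smallest distance between the groups was 0.96. The means were 8.46 ± 1.00 in null and 6.07 ± 0.43 in heterozygous cells (SD, n = 3 each), and the difference was 2.39 (SE 0.52), or 5.26-fold. Without null replicate 1 the difference was 2.97 (SE 0.23), or 7.84-fold, while that array alone stood 1.24 above the heterozygous mean, a 2.36-fold higher signal.

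Vav3, the exchange factor, had log2 signals of 7.99, 9.14 and 9.21 in null replicates 1, 2 and 3, against 6.50, 7.14 and 6.69 in heterozygous replicates 1, 2 and 3. Null replicate 1 lay 1.19 below the mean of the other null arrays and 0.85 above the highest heterozygous value. The means were 8.78 ± 0.69 in null and 6.78 ± 0.33 in heterozygous cells (SD, n = 3 each), and the difference was 2.00 (SE 0.36), or 4.01-fold. Without null replicate 1 the difference was 2.40 (SE 0.19), or 5.27-fold.

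Fold changes are ratios of background-corrected array signals and do not count molecules, and in sorted pools fewer cells of a type and less RNA per cell cannot be told apart. By limma, a linear model fitted over all genes with Benjamini-Hochberg adjustment and a threshold of 0.05, 1 of the 4 members was called higher with all 6 arrays (Adcy2), where 0.0953% of all genes were. Without null replicate 1 all 4 were called, where 0.993% of all genes were, and 0 were called when any 1 of the other 5 arrays was left out instead. Because this contrast chose the members, these counts are no evidence for them.

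Over the whole transcriptome null replicate 1 was the array least like the rest. Its correlations with them across genes were 0.905 to 0.935, against 0.975 to 0.995 among the other 5. Markers of several cell types moved with it. The 10 markers of mature olfactory neurons were all lower there than on both other null arrays, with a median shift of -1.67, and so were 7 of 8 markers of immature neurons (median shift -1.29). All 8 mesenchyme and bone markers were higher there (median shift 3.61), as were 8 of 8 myeloid markers (2.00), 5 of 6 of ensheathing glia (1.18), 6 of 6 of endothelium (1.39) and 7 of 8 of sustentacular cells (1.06), the supporting cells of the epithelium. Of the 5 measured vomeronasal markers, 3 were lower on null replicate 1 than on both other null arrays and 1 was higher (median shift -0.24). Pde1a, Sphkap and Vav3, which shifted by -1.14, -1.73 and -1.19, moved in the direction of the mature and immature neuron lists. Adcy2 shifted by -0.28.

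The summed signal of each marker list, on the log2 scale, gives the range within each genotype. Mature neuron markers summed to 11.82 to 13.57 in null and 14.03 to 14.48 in heterozygous cells, so the groups did not overlap, and the lowest value was null replicate 1. Without that array their median difference was -0.82, with 9 of 10 negative and 4 that fell by limma (Omp, Adcy3, Stoml3 and Kirrel2). For this and the following lists, 0.993% of all genes rose and 1.67% fell without null replicate 1. Immature neuron markers summed to 13.20 to 14.48 in null and 14.07 to 14.25 in heterozygous cells. The null sums of replicates 2 and 3, 14.48 and 14.46, lay above every heterozygous sum, and without null replicate 1 the median difference of these markers was 0.37, with 7 of 8 positive and 3 that rose by limma (Stmn4, Chl1 and Ablim1). Chl1 was the 1 marker of this list that was higher on null replicate 1 (6.37) than on the other null arrays (5.24 and 5.24). Its heterozygous values, 4.36 to 4.56, lay near the lower quartile of the arrays, 4.30 to 4.44. Vomeronasal markers, 5 of 6 measured (all but Trpc2), summed to 11.40 to 11.98 in null and 11.38 to 11.47 in heterozygous cells. Here too null replicates 2 and 3, at 11.98 and 11.89, lay above every heterozygous sum, and without null replicate 1 all 5 markers were positive (median 0.38), with 1 that rose (Gnai2). Sustentacular markers summed to 13.01 to 14.07 in null and 13.32 to 13.64 in heterozygous cells. Null replicates 2 and 3, at 13.15 and 13.01, lay below every heterozygous sum, and without null replicate 1 the median was -0.55, with 7 of 8 markers negative and 1 that fell (Ermn). Mesenchyme and bone markers summed to 9.98 to 14 in null and 9.73 to 11.12 in heterozygous cells, and those of myeloid cells to 8.52 to 11.45 in null and 8.45 to 9.03 in heterozygous cells. Ensheathing glia markers summed to 9.14 to 12.15 in null and 8.66 to 9.32 in heterozygous cells, endothelial markers to 7.95 to 9.60 in null and 7.69 to 8.41 in heterozygous cells, and erythroid markers to 6.76 to 9.91 in null and 6.72 to 7.12 in heterozygous cells. The high erythroid sum of null replicate 1 came mostly from Alas2, at 9.78 there against 6.08 and 5.09 in null replicates 2 and 3. Of the 3 measured erythroid markers 2 were higher there, with a median shift of only 0.10. No marker is at 0 on this scale, and the lowest single value of any was 3.82, for the myeloid gene Aif1. The part of these shifts in the members' values was not tested.

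**Figure D2:**
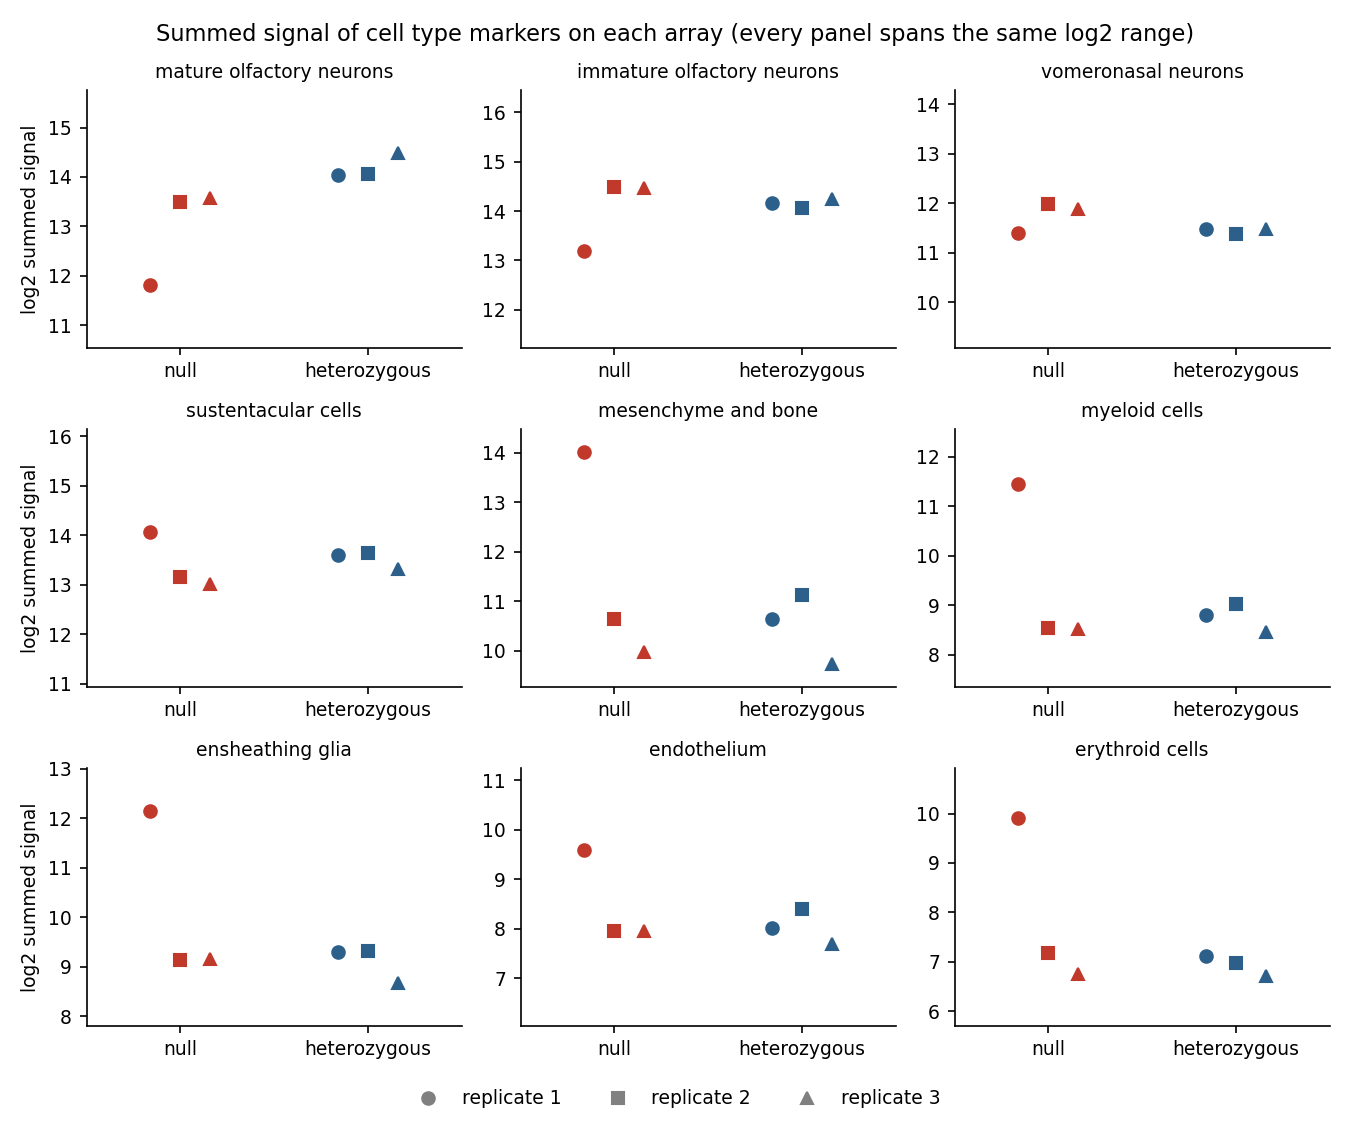
Log2 of the summed signal of 9 marker lists (vertical axis, 1 panel per list) on the 3 null and the 3 heterozygous arrays, 1 point per array with the replicate number as its shape. Null replicate 1 is the lowest point for mature and immature olfactory neurons and the highest for mesenchyme and bone, myeloid cells, ensheathing glia, endothelium, erythroid and sustentacular cells. Its erythroid sum came mostly from 1 marker, Alas2.

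Centred values over the arrays also set Adcy2 apart from the other 3 members. Likeness was measured as the root mean square difference between 2 genes' log2 values, each gene centred on its own mean, over the 6 arrays. The values were not scaled, so this measure also takes in the size of the genotype difference. That difference was 1.51 for Adcy2 and 2.00 to 2.39 for the other members, and its share in the distances was not separated. Pde1a and Vav3 differed by 0.19, Pde1a and Sphkap by 0.27, and Sphkap and Vav3 by 0.31. Adcy2 differed from Vav3 by 0.43, from Pde1a by 0.52 and from Sphkap by 0.72.

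Among 9969 genes with a mean above the median gene, the profile nearest to Sphkap was that of Car2, a carbonic anhydrase (0.11). Car2 had log2 signals of 9.11, 10.77 and 10.61 in null replicates 1, 2 and 3, against 7.31, 8.24 and 8.14 in heterozygous replicates 1, 2 and 3, so it shared both the low null and the low heterozygous array of Sphkap. Next to Pde1a stood B3galt1, a galactosyltransferase (0.15), then Vav3, and then Kcnj5, a potassium channel subunit (0.22). Next to Vav3 stood Pde1a, Kcnj5 (0.26) and Car2 (0.27). Adcy2 had other neighbours, the cell surface glycoprotein gene Cd200 (0.14), Rassf9 (0.17) and Fam102b (0.18). Its own mean lay below that of the median gene, so Adcy2 could not itself be listed as a neighbour of any gene. Cd200 had 8.31, 8.42 and 8.34 in null replicates 1, 2 and 3, against 6.76, 6.94 and 6.66 in heterozygous replicates 1, 2 and 3, with no low null array.

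**Figure D3:**
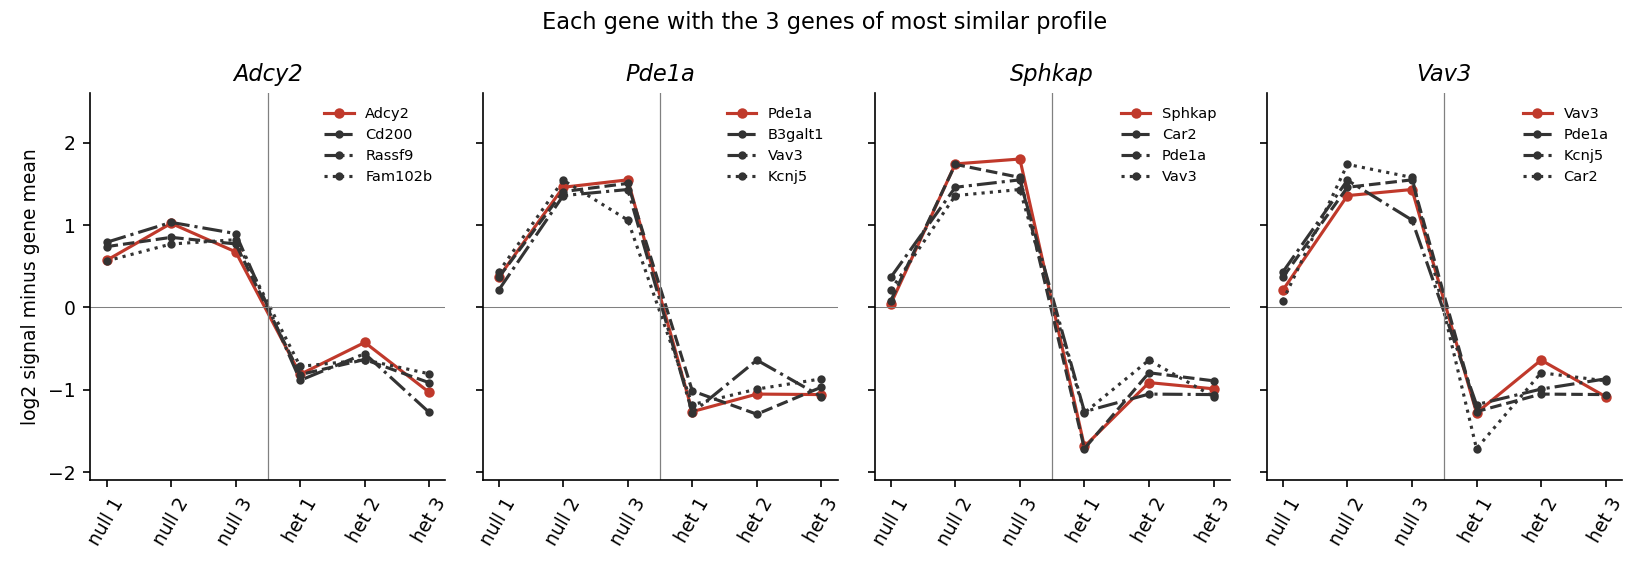
Log2 signal minus the gene's mean over 6 arrays (vertical axis) for each member in red and for the 3 genes of most similar profile in black, over the 3 null and the 3 heterozygous arrays. Null replicate 1 is the lowest null array in every profile, by less for Adcy2 and its neighbours than for Pde1a, Sphkap, Vav3 and theirs.

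The other genes of these pathways were tested, since they were not among the members. The lists were themselves drawn up with earlier results of these data known. Their p-values and counts are therefore not free of that choice. In 13 lists 134 genes besides the members were measured, of 142 listed. With all 6 arrays 2 of them rose (Gnai2 and Grk3), where 0.0953% of all genes did, and 1 fell (Pde7b), where 0.456% did. Without null replicate 1, 7 rose (0.993% of all genes) and 5 fell (1.67% of all genes), including the same 3. For the null group these calls rest on replicates 2 and 3 alone, since replicate 1 was left out because it stood apart. Adcy3, Gucy2d, Pde1b, Pde1c, Pde2a, Pde8b, Prkar1b, Bves and Slc24a4 were each called in 2 of 14 settings. These were the fit without null replicate 1 and a fit with array weights, which gave that array a weight of 0.136. The median difference of the 134 was 0.06, against 0.02 over all genes, and 24 of them had all null values above all heterozygous values and 21 all below, where 9.72% and 8.77% of all genes did. Counts at an unadjusted p below 0.05 are given for each list, and over all genes with all arrays 4.23% had such a p with higher and 5.25% with lower null values.

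**Figure D4:**
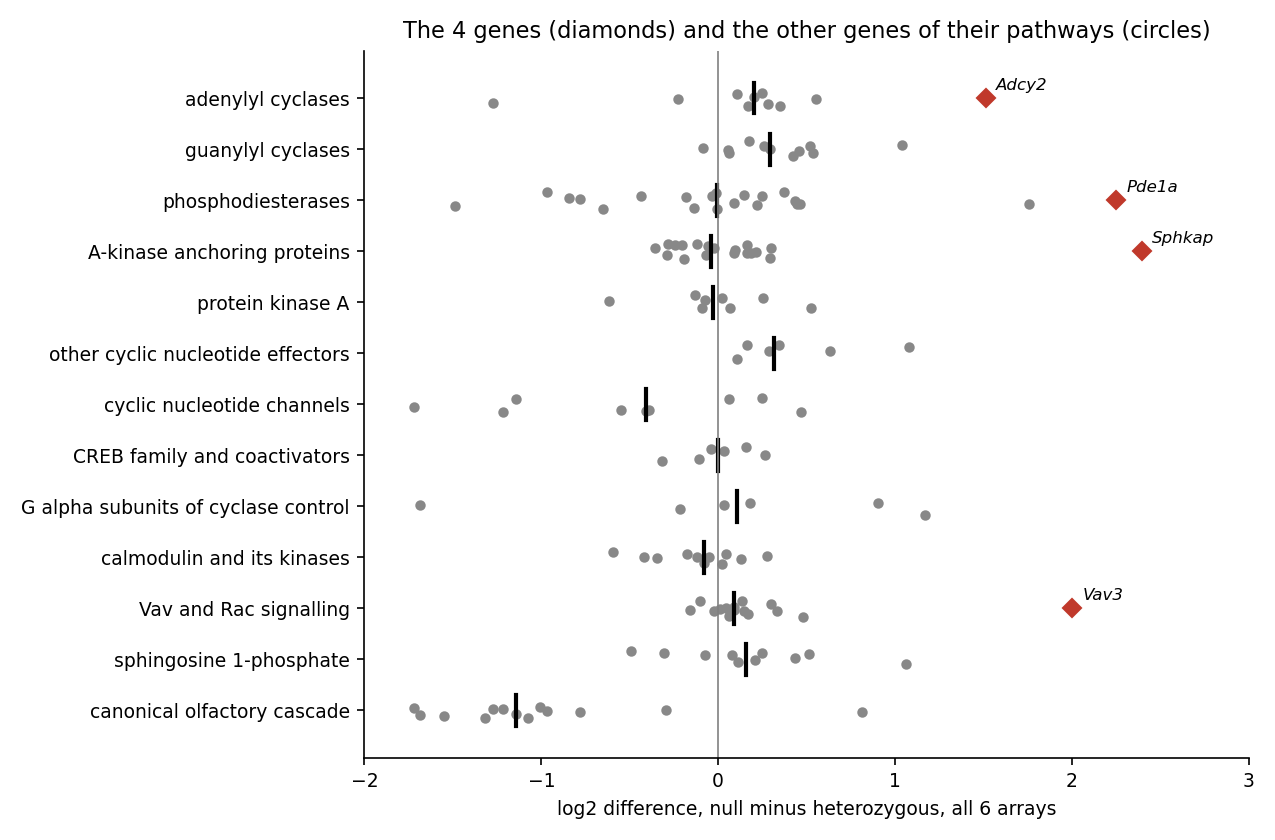
Log2 difference, null minus heterozygous over all 6 arrays (horizontal axis), of the 4 members (red diamonds) and of the other measured genes (circles) in 13 lists, with the median of the circles in each list as a bar. Each member lies to the right of every other gene of its list, which is a description, since the members were picked for being higher. The canonical olfactory cascade has the lowest median, -1.14.

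Adcy2 was higher in null cells in a family whose olfactory member was lower. Adcy3 had log2 signals of 7.63, 8.59 and 8.73 in null replicates 1, 2 and 3, against 9.43, 9.43 and 9.92 in heterozygous replicates 1, 2 and 3. All null values were below all heterozygous values, with a difference of -1.28 (SE 0.32, limma adjusted p = 0.263) with all arrays. Adcy3 fell without null replicate 1, by 0.93 (SE 0.17, adjusted p = 0.0432). Of the 9 adenylyl cyclases besides Adcy2, 0 passed by limma with all arrays, and an unadjusted p below 0.05 was found for 1 with higher and 1 with lower null values. The closest relatives of Adcy2 by sequence are Adcy4, which differed by 0.25 (SE 0.26, 95% interval -0.39 to 0.89, adjusted p = 0.771) with all arrays and by -0.01 (SE 0.17) without null replicate 1, and Adcy7, which differed by 0.55 (SE 0.16, 95% interval 0.16 to 0.94, adjusted p = 0.341).

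The G protein subunits that control cyclases included 1 that rose. Gnai2, an inhibitory subunit also used by vomeronasal neurons, had 10.40 ± 0.06 in null and 9.23 ± 0.18 in heterozygous cells (SD, n = 3 each), and the difference was 1.17 (SE 0.12, limma adjusted p = 0.0201), higher in 3 of 3 null arrays. Its call was lost without null replicate 2 or 3 or heterozygous replicate 1 or 3, with adjusted p up to 0.108. Gnao1, the other subunit known from vomeronasal neurons, had 10.15 ± 0.76 in null and 10.37 ± 0.16 in heterozygous cells, a difference of -0.21 (SE 0.37, adjusted p = 0.861). Its direction turned without null replicate 1, to 0.23 (SE 0.12, adjusted p = 0.404). Gnal, the olfactory subunit, had 8.42 ± 1.08 in null and 10.11 ± 0.43 in heterozygous cells, a difference of -1.69 (SE 0.55, adjusted p = 0.411) with all arrays and of -1.07 (SE 0.24, adjusted p = 0.0776) without null replicate 1.

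The phosphodiesterases took opposite courses within 1 subfamily. Pde1a was higher in null cells, while both other genes for calmodulin-activated phosphodiesterases were lower on every null array. Pde1c, the enzyme of olfactory cilia, had log2 signals of 7.23, 7.59 and 7.34 in null replicates 1, 2 and 3, against 8.18, 8.32 and 8.56 in heterozygous replicates 1, 2 and 3. Its difference was -0.97 (SE 0.15, limma adjusted p = 0.0694), and it fell without null replicate 1, by 0.89 (SE 0.14, adjusted p = 0.0272). Pde1b had 6.82, 7.24 and 7.21 in null replicates 1, 2 and 3, against 7.79, 7.76 and 7.66 in heterozygous replicates 1, 2 and 3. The Pde1b difference was -0.65 (SE 0.14, adjusted p = 0.175), and it too fell without null replicate 1, by 0.52 (SE 0.09, adjusted p = 0.0404).

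Over all 20 phosphodiesterase genes besides Pde1a, 0 rose and 1 fell with all arrays. That gene, Pde7b, encodes an enzyme specific for cyclic AMP and had log2 signals of 8.84, 9.07 and 9.21 in null replicates 1, 2 and 3, against 10.36, 10.42 and 10.80 in heterozygous replicates 1, 2 and 3. The Pde7b difference was -1.49 (SE 0.16, limma adjusted p = 0.0246), a 2.80-fold lower signal in null cells, and its call was lost when any 1 array other than null replicate 1 was left out, with adjusted p up to 0.119. Without null replicate 1, 2 rose and 3 fell in this list. Pde2a, which cyclic GMP stimulates, had 8.12, 9.51 and 9.54 in null replicates 1, 2 and 3, against 7.36, 7.19 and 7.35 in heterozygous replicates 1, 2 and 3. Like Pde1a, Pde2a was lowest of the null arrays on replicate 1, and its difference was 1.76 (SE 0.39, adjusted p = 0.202) with that array and 2.22 (SE 0.10, adjusted p = 0.000249) without it. With 1 other array left out instead, the adjusted p of Pde2a was up to 0.664. Pde8b, another enzyme specific for cyclic AMP, rose once null replicate 1 was left out, by 0.54 (SE 0.09, adjusted p = 0.0324), against 0.44 (SE 0.11, adjusted p = 0.258) with all arrays.

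**Figure D5:**
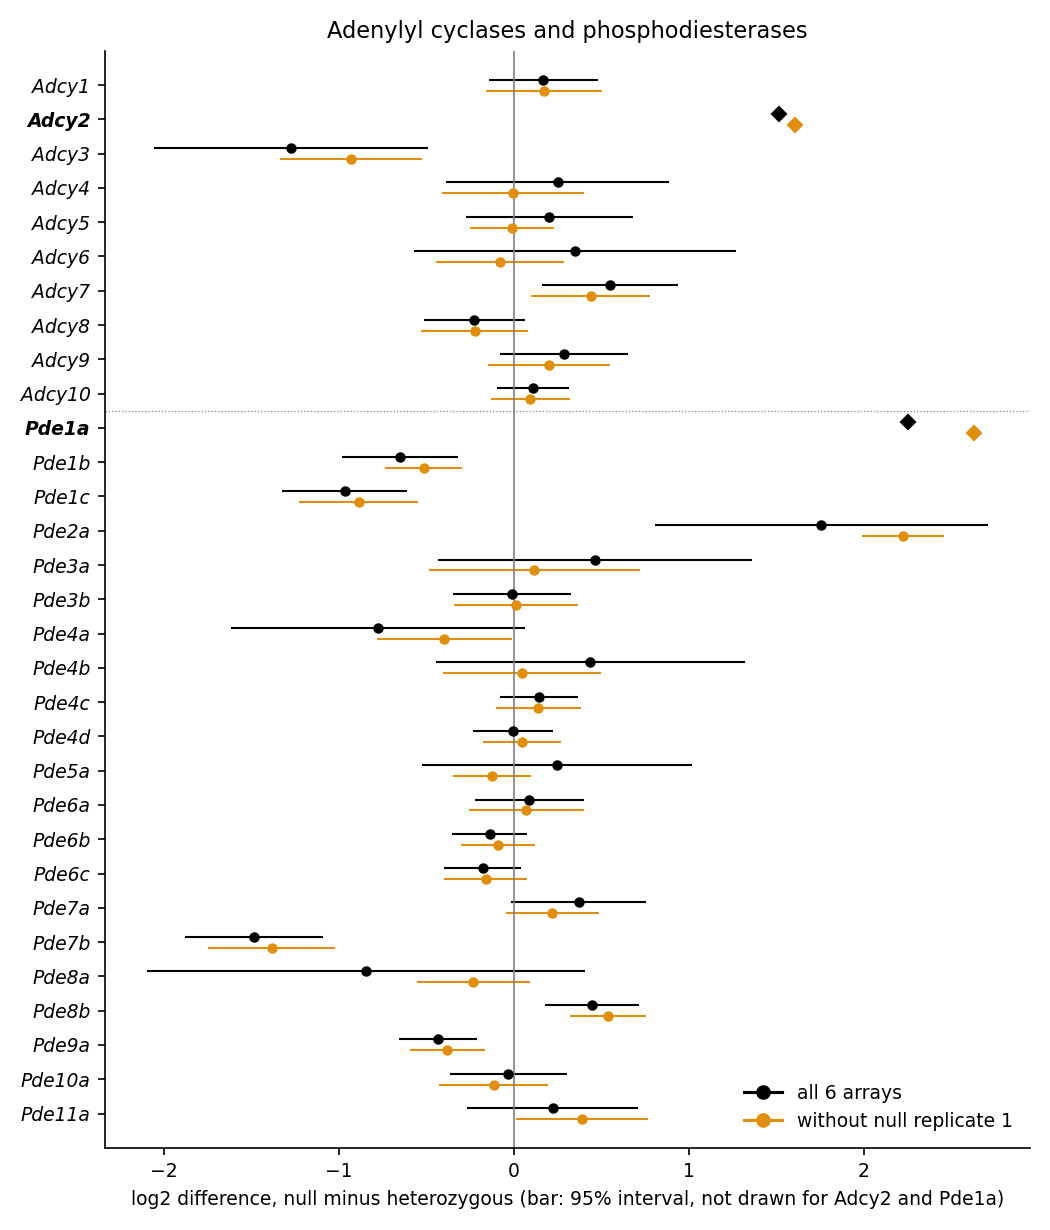
Log2 difference, null minus heterozygous (horizontal axis), of 10 adenylyl cyclase and 21 phosphodiesterase genes with all 6 arrays (black) and without null replicate 1 (orange), and 95% intervals from limma except for the members Adcy2 and Pde1a, drawn as diamonds. Adcy2 lies at 1.51 and Adcy3 at -1.28, Pde1a at 2.25 and Pde1c at -0.97, and Pde7b has the lowest difference, -1.49.

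Genes that make and read cyclic GMP and cyclic AMP were examined next. Of 11 guanylyl cyclase genes 0 passed by limma with all arrays, and an unadjusted p below 0.05 was found for 5 with higher null values (4.23% of all genes) and 0 with lower (5.25% of all genes). Gucy2d, the receptor cyclase of a small class of atypical olfactory neurons, had log2 signals of 6.00, 7.37 and 7.27 in null replicates 1, 2 and 3, against 5.83, 5.87 and 5.82 in heterozygous replicates 1, 2 and 3. The Gucy2d difference was 1.04 (SE 0.37, adjusted p = 0.455) with all arrays, and it rose without null replicate 1, by 1.48 (SE 0.09, adjusted p = 0.000716). Of 9 cyclic nucleotide channel genes 0 passed by limma, and an unadjusted p below 0.05 was found for 1 with higher and 2 with lower null values. Cnga4 differed by -1.72 (SE 0.43, adjusted p = 0.257) and Cnga3, the channel subunit of Gucy2d neurons, by 0.47 (SE 0.14, adjusted p = 0.379). Without null replicate 1 Cnga4 differed by -1.28 (SE 0.24, adjusted p = 0.0508) and Cnga3 by 0.56 (SE 0.13, adjusted p = 0.0861). Of 6 other cyclic nucleotide effectors 0 passed by limma with all arrays, and an unadjusted p below 0.05 was found for 2 with higher and 0 with lower null values. Bves, a cyclic AMP-binding membrane protein, rose without null replicate 1, by 0.83 (SE 0.09, adjusted p = 0.00789), against 0.63 (SE 0.18, adjusted p = 0.341) with all arrays.

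Sphkap, at position 1 of all 19938 genes by its difference, was necessarily first in its list as well. The 18 other genes of anchoring proteins for protein kinase A lay between -0.36 and 0.30, with a median of -0.04, with all arrays, and 0 passed by limma, while an unadjusted p below 0.05 was found for 1 with higher and 0 with lower null values. The list reached 0.67 without null replicate 1 (Akap6, SE 0.13, adjusted p = 0.0528) and 0 passed, while an unadjusted p below 0.05 was found for 5 with higher null values, where 7.63% of all genes had one, and 0 with lower, where 8.68% had one. Akap11, a relative of Sphkap, differed by 0.21 (SE 0.13, 95% interval -0.11 to 0.53, adjusted p = 0.665) with all arrays and by 0.33 (SE 0.10, 95% interval 0.09 to 0.57, adjusted p = 0.183) without null replicate 1. Akap12 differed by 0.29 (SE 0.08, adjusted p = 0.329) and Akap3 by -0.36 (SE 0.19, adjusted p = 0.616). Of 8 genes of protein kinase A and its inhibitors, 0 passed by limma with all arrays, while an unadjusted p below 0.05 was found for 1, with higher null values. That gene, Prkar1b, encodes a type I regulatory subunit, the type that SPHKAP binds. Prkar1b had 7.05, 7.75 and 7.63 in null replicates 1, 2 and 3, against 6.92, 7.02 and 6.92 in heterozygous replicates 1, 2 and 3. It rose without null replicate 1, by 0.74 (SE 0.10, adjusted p = 0.0134), against 0.52 (SE 0.19, adjusted p = 0.48) with all arrays. Prkar1a, the other type I subunit, differed by -0.09 (SE 0.14, adjusted p = 0.846), and by 0.05 (SE 0.10) without null replicate 1. The sphingosine kinase gene Sphk1 differed by 0.44 (SE 0.18, adjusted p = 0.529), and by 0.25 (SE 0.11, adjusted p = 0.337) without null replicate 1. Sphk2 differed by 0.08 (SE 0.11, adjusted p = 0.823). Of 10 genes of sphingosine 1-phosphate metabolism and reception 0 passed by limma, and an unadjusted p below 0.05 was found for 0 with higher and 1 with lower null values, the phosphatase gene Sgpp1 at -0.30 (SE 0.12, adjusted p = 0.499).

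Vav3 was higher in null cells without a called change in its relatives. Vav1, the blood cell member, had log2 signals of 5.48, 4.82 and 4.59 in null replicates 1, 2 and 3, against 4.55, 4.37 and 4.53 in heterozygous replicates 1, 2 and 3, and was highest on the array where the myeloid markers were highest. Its difference was 0.48 (SE 0.23, limma adjusted p = 0.588), and Vav2 differed by 0.05 (SE 0.12, 95% interval -0.25 to 0.34, adjusted p = 0.909). Of 14 genes of Vav and Rac signalling besides Vav3, 0 passed by limma, and an unadjusted p below 0.05 was found for 0 in either direction. The smallest p-values belonged to Vav1 and to Rhog, a GTPase on which Vav proteins act, at 0.33 (SE 0.23, adjusted p = 0.697). Vav1 differed by 0.22 and Rhog by 0.09 without null replicate 1, and then the smallest p-value was that of the exchange factor gene Tiam1, at -0.38 (SE 0.10, adjusted p = 0.131).

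Calmodulin, which activates the Pde1 enzymes, and the CREB factors, which respond to cyclic AMP, showed no called gene. Of 11 genes of calmodulin and its kinases 0 passed by limma, and an unadjusted p below 0.05 was found for 0 with higher and 1 with lower null values, the kinase gene Camk4 at -0.59 (SE 0.16, adjusted p = 0.306). Without null replicate 1 Camk4 differed by -0.71 (SE 0.14, adjusted p = 0.0589). Camk1 differed by -0.42 (SE 0.21, adjusted p = 0.589), and by -0.28 (SE 0.18) without null replicate 1. Of 6 genes of CREB factors and coactivators 0 passed by limma, and an unadjusted p below 0.05 was found for 0, Crtc3 at -0.32 and Crem at 0.27 having the smallest p-values. Crtc3 differed by -0.09 and Crem by 0.07 without null replicate 1. The smallest p-value of the list was then that of Atf1, at -0.37 (SE 0.15, unadjusted p = 0.0437, adjusted p = 0.288).

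The canonical olfactory cascade ran the other way from the 4 members. Its 13 genes had a median difference of -1.14, against 0.02 over all genes, 12 were negative, and 11 had all null values below all heterozygous values, where 8.77% of all genes did. With all arrays 0 fell and 1 rose by limma, and an unadjusted p below 0.05 was found for 1 with higher (4.23% of all genes) and 9 with lower null values (5.25% of all genes). The 10 mature neuron markers, 4 of which are cascade genes (Adcy3, Cnga2, Gnal and Ano2), were negative in 10 of 10 cases with a median of -1.30, and their part in the cascade's values was not tested. Without null replicate 1 the median was -0.78 and 3 fell (Adcy3, Pde1c and the exchanger gene Slc24a4). Slc24a4 differed by -1.07 (SE 0.15, adjusted p = 0.0635) with all arrays. Cnga2, the main channel subunit, differed by -1.14 (SE 0.55, adjusted p = 0.584), and by -0.49 (SE 0.16, adjusted p = 0.2) without null replicate 1.

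The gene that rose was Grk3, a receptor kinase that desensitises odorant receptors. Grk3 had log2 signals of 5.98, 5.87 and 5.95 in null replicates 1, 2 and 3, against 5.07, 5.19 and 5.09 in heterozygous replicates 1, 2 and 3. Both groups were tight, and the difference was 0.82 (SE 0.09, limma adjusted p = 0.0219), a 1.76-fold higher signal. Null replicate 1 was the highest of the null arrays for Grk3, where it was the lowest for the 4 members. Its call was lost when any 1 array other than null replicate 1 was left out, with adjusted p up to 0.144.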

How the data were processed

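Per the submitters' processing notes, GCRMA and Affymetrix Expression Console were used by the authors, who deposited 1 log2 signal for each probe set on each array. Input was 100 ng of total RNA, per the labels' protocols, and tool versions, their order and any filters are not given in the sources used here. Base 2 was inferred from the range of the values, 2.14 to 14.5. GCRMA subtracts an estimated background, so differences near the bottom of that range depend most on that estimate. The number of arrays, 3 per group, limits precision.

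Of 35557 probe sets, 21789 had 1 gene symbol in the platform annotation, 1621 several and 12147 none, and symbols were updated through Entrez numbers to RefSeq names (21698 matched). Each of 19938 genes was represented by 1 probe set, the brightest on average across the 6 arrays, with no filter and no further normalisation. Array medians lay between 5.82 and 5.95.

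Null minus heterozygous differences were fitted with limma 3.58.1 in R 4.3.3 (lmFit, eBayes, two-sided, Benjamini-Hochberg over all genes, threshold 0.05), and the procedure was checked on simulated data. SE values are limma's moderated standard errors, and p-values reflect only how far these samples spread, which may be technical. An exact permutation of 3 against 3 arrays cannot go below p = 0.1, so none was run.

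The members and lists were chosen with earlier results of these data known. Named besides the members were genes past the threshold with 6 or 5 arrays (at most 4 a list), fixed paralogues, Gnal and Cnga2, the 2 smallest p-values of a list with no call, and the 3 nearest profiles. Gnao1, Prkar1a, Sphk2, Akap6, Tiam1, Atf1, the cell type markers given by name and the genes of the closing observations were named after their values were seen. Protein sequences were not used here. Alternatives were quantile normalisation, median centring, a filter on dim genes, averaged probe sets, trend and robust eBayes, array weights, a replicate block, and leaving out each array.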

Additional observations from a re-analysis of the deposited data

How the results depend on the processing

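The differences of Adcy2, Pde1a, Sphkap and Vav3 were positive under each of 10 alternatives and moved by less than the pooled SD of both groups, which null replicate 1 itself widened. Without that array Pde1a, Sphkap and Vav3 moved by more than the SD of the heterozygous arrays. Leaving out 1 array gave 1.38 to 1.68 for Adcy2, 2.04 to 2.63 for Pde1a, 2.09 to 2.97 for Sphkap and 1.79 to 2.40 for Vav3. The count of genes past the threshold, 110 in all, was 40 to 531 when 1 array was left out (531 without null replicate 1), 24 of 9969 genes with dim genes removed, where fewer genes were tested, and 740 with array weights, which gave null replicate 1 a weight of 0.136. The count of pathway genes past it, 3, was 0 to 12 when 1 array was left out, 17 with array weights and 1 with the replicate block, and the cause was not tested. Same-numbered null and heterozygous arrays did not deviate together throughout (correlations of 0.23, -0.33 and 0.54), so the numbers were not taken to pair the arrays, and the replicate block gave 88 genes in all. With array weights all 4 members were called, and with the block Adcy2 alone. With the block Gnai2 and Grk3 were not called, and the removal of dim genes left Grk3 and Adcy2 untested. Signal over background could not be examined per probe.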

Other observations

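Several pathway genes were high on null replicate 1 alone. The sphingosine 1-phosphate receptor gene S1pr3 had log2 signals of 8.68, 5.35 and 5.03 in null replicates 1, 2 and 3, against 5.21, 5.59 and 5.08 in heterozygous replicates 1, 2 and 3, so its difference was 1.06 with all arrays and -0.10 without null replicate 1. Gucy1a1, a subunit of soluble guanylyl cyclase, had 7.27, 5.29 and 5.15 in null replicates 1, 2 and 3, against 5.33, 5.79 and 5.32 in heterozygous replicates 1, 2 and 3. Its difference was 0.42 with all arrays and -0.26 without null replicate 1.

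Prkg1, the cyclic GMP-dependent protein kinase, was highest on that array too but was above every heterozygous value on all null arrays. It had 8.05, 6.27 and 6.72 in null replicates 1, 2 and 3, against 5.93, 5.97 and 5.93 in heterozygous replicates 1, 2 and 3, a difference of 1.08 with all arrays (SE 0.44, limma adjusted p = 0.527) and 0.56 without null replicate 1. The part of the cell type markers in these values was not tested.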
